A study of Homo sapiens with 20 samples.

Results

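The genes described here code for apolipoproteins and for proteins that the early liver secretes. They are APOA1, APOA2, APOB, APOC1, APOE, ALB, AFP, TTR, RBP4 and SERPINA1, 10 of the 54435 features counted in the series, and they were taken by symbol. Poly(A) RNA came from H1, an established line of human embryonic stem cells, in 3 forms. KO2 and KO1 are 2 clones that carry a knockout of the long noncoding RNA DIGIT by their labels, and WT is unedited. Each form was sampled on day 4 after transfer to RPMI medium, supplemented with B27 and Activin A at 50 ng/ml to direct cells towards endoderm, and at day 0 in mTeSR1, a medium for undifferentiated cells. That makes 6 groups of 2 libraries, with 9942016 to 21394547 counts per library. Each knockout line is 1 clone, so an effect of the clone and an effect of the knockout cannot be told apart, and DIGIT itself was not analysed here. The labels do not say that replicates are separate cultures, so p values measure the spread between these libraries, which may be technical. The KO1 day 0 libraries differed from each other by a chi-square of 20.1 per gene, against 1.89 to 3.83 in the other 5 pairs.

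Apolipoproteins are the protein parts of lipoproteins, the particles that carry cholesterol and triglycerides in plasma, and ligands by which receptors take these particles up. In the embryo the yolk sac endoderm makes apolipoproteins, AFP and transport proteins before the liver does, and the liver arises from definitive endoderm, the germ layer that Activin A culture is meant to produce. Hepatocyte nuclear factors, FOXA and GATA factors are known regulators of many of these genes in liver.

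The libraries held few signs of hepatocytes. SLC10A1, the bile acid uptake carrier of hepatocytes, had 0 counts in all 12 libraries. The drug-metabolising enzymes CYP3A4 and CYP2E1 and the glucose-6-phosphatase gene G6PC stood below 0.1 CPM in every group mean, where CPM is the count divided by the scaled library total and put on a common scale. The 12 hepatocyte markers summed to 51.2 to 52.4 CPM in KO2 day 4, 51.4 to 52.6 in KO1 day 4 and 51.0 to 51.2 in WT day 4, and at day 0 to 45.6 to 56.7 CPM. CPS1, a urea cycle enzyme, gave most of that sum. The 8 definitive endoderm markers summed to 1004 to 1244 CPM in KO2 day 4, 5394 to 5484 in KO1 day 4 and 4839 to 5364 in WT day 4, against 6.43 to 14.2 CPM at day 0.

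Of the 10 genes, 8 passed the filter on low counts. TTR, the carrier of thyroid hormone and of the retinol-RBP4 complex, had 1 count in all 12 libraries together, in WT day 0. SERPINA1, the protease inhibitor alpha-1 antitrypsin, had 3 counts in KO2 day 4, 1 in KO1 day 4 and 2 in WT day 4, and 2 in each day 0 group. A floor of 3 counts corresponds to 0.133 to 0.294 CPM in a library, so the levels of TTR and SERPINA1 were not detectable above it at this depth and no fold is given. APOA2 in WT day 0, KO2 day 0 and KO2 day 4, APOA1 in KO2 day 0 and ALB in WT day 0 also lay below this floor in each library. Folds that rest on those groups are uncertain in size.

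ALB and AFP are neighbours in one gene family, with starts 31.9 kb apart on chromosome 4 of GRCh38, and APOA2 had the highest ratio of counts between the days in WT. The RefSeq sequences of these 3 genes before their annotated starts (GRCh38.p14) are shown because ALB and APOA2 were higher at day 4 in WT, whereas AFP was not called there. Capitals mark matches to the motifs searched.
APOA2: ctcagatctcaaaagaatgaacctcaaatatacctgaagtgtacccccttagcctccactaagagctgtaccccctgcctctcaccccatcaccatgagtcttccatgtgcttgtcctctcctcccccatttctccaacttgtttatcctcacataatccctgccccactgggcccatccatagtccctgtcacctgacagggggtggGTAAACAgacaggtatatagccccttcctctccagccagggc
ALB: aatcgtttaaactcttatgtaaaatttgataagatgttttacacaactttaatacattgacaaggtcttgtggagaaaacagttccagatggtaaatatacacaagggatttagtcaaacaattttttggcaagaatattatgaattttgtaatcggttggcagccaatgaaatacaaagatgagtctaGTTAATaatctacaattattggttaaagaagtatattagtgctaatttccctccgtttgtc
AFP: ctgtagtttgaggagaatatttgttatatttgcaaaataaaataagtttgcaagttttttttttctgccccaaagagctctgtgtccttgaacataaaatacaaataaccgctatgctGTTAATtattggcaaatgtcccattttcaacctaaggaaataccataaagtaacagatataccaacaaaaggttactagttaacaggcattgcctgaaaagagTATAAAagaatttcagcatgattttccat
The bases lie at chr1:161223629-161223878 on the minus strand for APOA2, chr4:73404037-73404286 on the plus strand for ALB and chr4:73435971-73436220 on the plus strand for AFP, and each is printed 5′ to 3′ up to the base before the start. Short motifs were searched on both strands of windows that run from 250 bases before to 50 after a start. The FOX motif TGTTTAC, read on the minus strand as GTAAACA, begins 42 bases before the start of APOA2 and was held by 3.42% of the 35116 windows. The sequence GTTAAT, which is only a part of the full HNF1 site, begins 61 bases before the start of ALB and 132 before that of AFP and was held by 6.88%. TATAAA begins 29 bases before the start of AFP and was held by 11.5%. The window of APOA2 also holds the GATA motif AGATAA at base 38 after the start, which 10.3% of windows held. The HNF4 motif CAAAGTC, in 3.37% of windows, and the T-box motif GGTGTGA, in 3.45%, were not in the 3 windows. A window was given for 7 of the 10 genes, and a match is a description of letters only.

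Over the 4 days, APOA1 and APOA2, the main proteins of high-density lipoproteins, and ALB, the main plasma protein, rose in WT. APOA1 had 4.12 and 3.42 CPM in the WT day 4 libraries, against 0.291 and 0.353 CPM in WT day 0. Both day 4 libraries lay above both day 0 libraries, and APOA1 rose by log2 3.49 (SE 0.48, adjusted p = 2.48e-05). These WT day 4 libraries are also the only ones through which APOA1 passed the filter, and APOA2 would not have passed without them. APOA2 had 6.56 and 5.86 CPM in WT day 4, against 0 and 0.0706 CPM in WT day 0. That is 177 counts against 1, for a ratio of 151 (95% counting interval 26.8 to 6012). The fitted change of APOA2 was log2 6.97 (SE 0.62, adjusted p = 2.24e-07). ALB had 1.22 and 1.29 CPM in WT day 4, against 0.0968 and 0.0706 CPM in WT day 0, or 36 counts against 2. That ratio was 15.4 (counting interval 3.96 to 132), and the fitted change was log2 3.80 (SE 0.57, adjusted p = 5.23e-05). Adjusted p values come from edgeR's quasi-likelihood test with Benjamini-Hochberg adjustment over 16792 features, and counting intervals cover counting error only. In bulk libraries, fewer cells of a type and less RNA per cell cannot be told apart.

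Of the 8 genes tested, 4 rose and 2 fell in WT, while 49.6% of all features tested were called, 24.3% higher and 25.4% lower. APOC1, which modulates lipoprotein metabolism, had 31.9 and 36.1 CPM in WT day 4 and 25.5 and 29.0 CPM in WT day 0 (log2 0.32, SE 0.11, adjusted p = 0.0239). APOE, a ligand for uptake of lipoproteins by cells, had 274 and 278 CPM in WT day 4 and 381 and 314 CPM in WT day 0 (log2 -0.33, SE 0.087, adjusted p = 0.00497). APOB, the structural protein of very low density and low density lipoproteins, had 1.45 and 1.29 CPM in WT day 4 and 3.002 and 2.33 CPM in WT day 0 (log2 -0.94, SE 0.28, adjusted p = 0.0108). These 3 smaller changes rested on WT libraries. Without WT day 0 replicate 1 the adjusted p was 0.089 for APOB, 0.147 for APOC1 and 0.135 for APOE. Without WT day 4 replicate 2 it was 0.0758 for APOB and 0.166 for APOC1. DESeq2 gave 0.0833 for APOB, and upper-quartile factors gave 0.0575 for APOC1. AFP, the fetal counterpart of albumin, had 2.59 and 5.41 CPM in WT day 4 and 2.32 and 4.87 CPM in WT day 0, so the days overlapped (log2 0.13, SE 0.46, adjusted p = 0.836). RBP4, the plasma carrier of retinol, did not pass in WT either, at log2 -0.84 (SE 0.35, adjusted p = 0.0596), though it did with upper-quartile factors (0.0458).

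**Figure D1:**
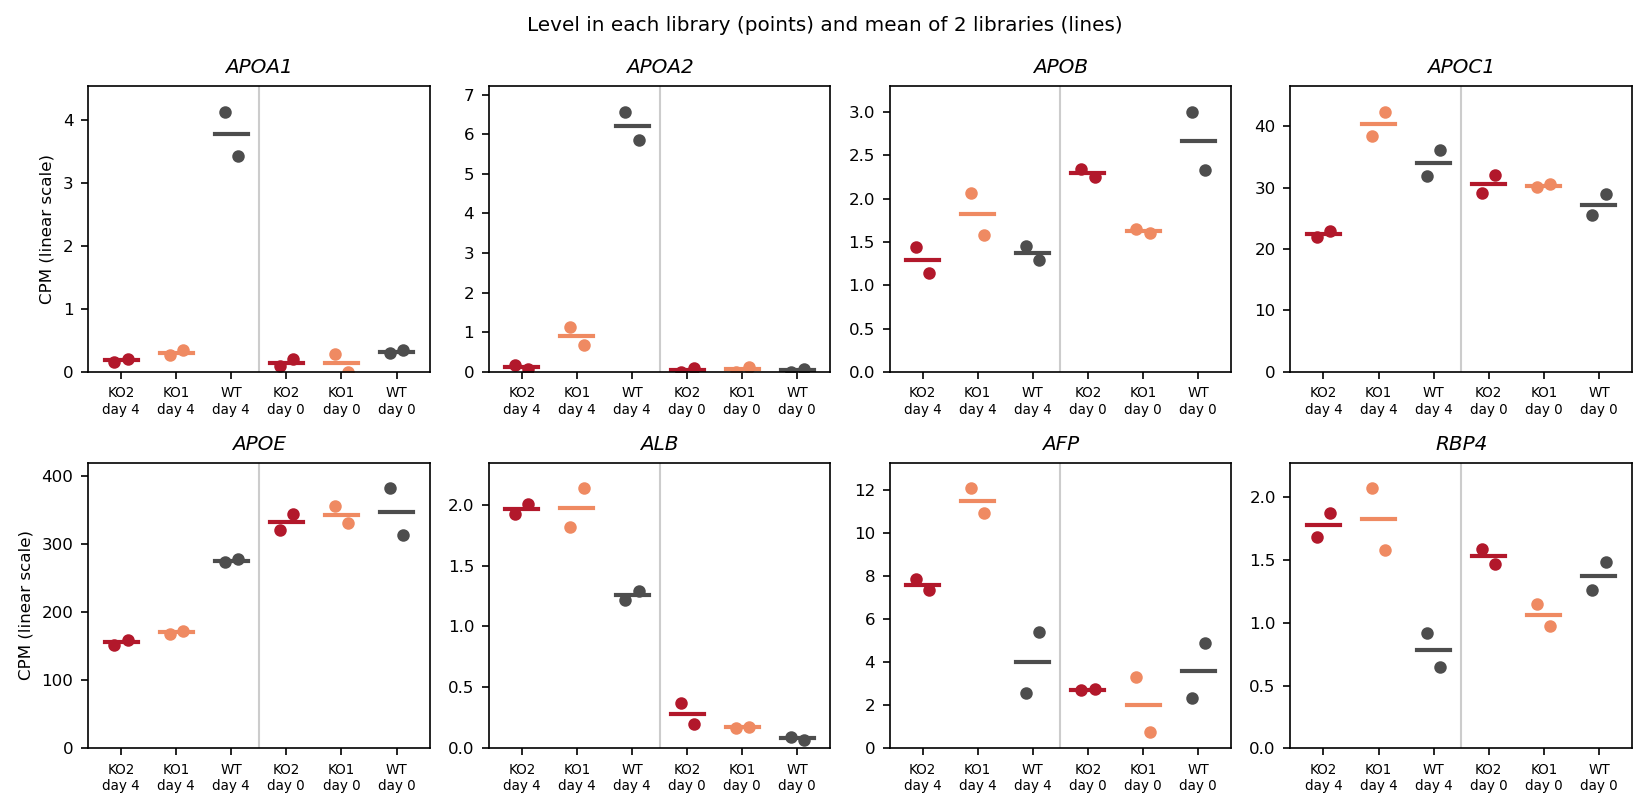
CPM (linear scale from 0) of the 8 genes tested in each of the 12 libraries (points) with the mean of the 2 libraries of a group (lines), for KO2, KO1 and WT at day 4 and at day 0. APOA1 and APOA2 are high in WT day 4 (3.42 to 6.56 CPM over both genes) and at most 1.12 CPM in every other group, whereas ALB is 1.22 to 2.13 CPM in all 3 lines at day 4.

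In the clones ALB rose between the days, as in WT. APOA1 did not pass in either clone, and APOA2 rose in KO1 and did not pass in KO2. KO2 had 5 of 8 genes called between the days, 2 higher and 3 lower, where 50.7% of all features were called (25% higher, 25.7% lower), and KO1 had 6 of 8, 5 higher and 1 lower, where 58.4% were (29.1% higher, 29.3% lower). ALB had 1.93 and 2.01 CPM in KO2 day 4, against 0.375 and 0.196 CPM in KO2 day 0 (log2 2.74, SE 0.42, adjusted p = 7.91e-05). In KO1 it had 1.81 and 2.13 CPM at day 4, against 0.165 and 0.178 CPM at day 0 (log2 3.46, SE 0.39, adjusted p = 2.27e-06). The rise of ALB was called in all 3 lines under every alternative run. APOA1 had 0.160 and 0.201 CPM in KO2 day 4, against 0.0937 and 0.196 CPM in KO2 day 0, and it did not pass (adjusted p = 0.823). In KO1 it had 0.259 and 0.344 CPM at day 4, against 0.275 and 0 CPM at day 0 (adjusted p = 0.225); without KO1 day 0 replicate 1 the day 0 group is at 0 counts and the adjusted p is 0.00597. APOA2 had 0.160 and 0.0669 CPM in KO2 day 4, against 0 and 0.0979 CPM in KO2 day 0. Those are 3 counts against 1, and the test did not pass (adjusted p = 0.568). In KO1 APOA2 had 1.12 and 0.688 CPM at day 4, against 0 and 0.133 CPM at day 0. The 23 counts against 3 amount to a ratio of 11.9 (counting interval 3.61 to 62.1). The fitted change was log2 3.44 (SE 0.71, adjusted p = 0.000722).

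APOE fell in both clones, as in WT, and by more. It had 151 and 160 CPM in KO2 day 4, against 320 and 344 CPM in KO2 day 0 (log2 -1.09, SE 0.089, adjusted p = 1.42e-07). It had 168 and 172 CPM in KO1 day 4, against 355 and 331 CPM in KO1 day 0 (log2 -1.01, SE 0.089, adjusted p = 1.47e-07). The day response of APOE was more negative than that of WT by log2 -0.76 in KO2 (SE 0.12, adjusted p = 0.000953) and by -0.68 in KO1 (SE 0.12, adjusted p = 0.00361). APOC1 fell between the days in KO2 (log2 -0.44, SE 0.11, adjusted p = 0.00429) and rose in KO1 (log2 0.41, SE 0.10, adjusted p = 0.00305). Its day response in KO2 differed from that of WT by log2 -0.76 (SE 0.16, adjusted p = 0.00469). Without KO2 day 0 replicate 2 the fall of APOC1 in KO2 had an adjusted p of 0.0559, and without KO1 day 4 replicate 2 its rise in KO1 had 0.0504. APOB fell in KO2 (log2 -0.84, adjusted p = 0.0291) and did not pass in KO1 (log2 0.15, adjusted p = 0.656). The call in KO2 was lost without KO2 day 0 replicate 1 (0.115), KO2 day 0 replicate 2 (0.088) or KO2 day 4 replicate 2 (0.181), with DESeq2 (0.146) and with no filter (0.0506).

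AFP rose between the days in both clones. It had 7.86 and 7.36 CPM in KO2 day 4, against 2.72 and 2.74 CPM in KO2 day 0 (log2 1.48, SE 0.46, adjusted p = 0.0152). It had 12.1 and 10.9 CPM in KO1 day 4, against 3.30 and 0.756 CPM in KO1 day 0 (log2 2.56, SE 0.42, adjusted p = 8.53e-05). The 2 KO1 day 0 libraries lie far apart here, as do the WT pairs at each day. The rise in KO2 had an adjusted p of 0.0769 without KO2 day 0 replicate 1, 0.072 without KO2 day 0 replicate 2, 0.0518 without KO2 day 4 replicate 1 and 0.0697 with DESeq2. The day response of AFP in KO1 exceeded that of WT by log2 2.44 (SE 0.63, adjusted p = 0.0241). It was not called when WT day 0 replicate 2 (0.261), WT day 4 replicate 1 (0.0968) or either KO1 day 4 library (0.0807 and 0.0556) was left out, nor with DESeq2 (0.108) or with only the libraries compared (0.0652). In KO2 the difference of log2 1.35 did not pass (adjusted p = 0.192), and it did when either KO1 day 0 library was left out (0.0179 and 0.0175), with no filter (0.00121) and with only the libraries compared (0.0209). RBP4 had 1.69 and 1.87 CPM in KO2 day 4, against 1.59 and 1.47 CPM in KO2 day 0, and did not pass (adjusted p = 0.583). In KO1 it had 2.07 and 1.58 CPM at day 4, against 1.15 and 0.979 CPM at day 0, and rose by log2 0.77 (SE 0.29, adjusted p = 0.0347). That rise was lost when KO1 day 0 replicate 2 (0.144) or KO1 day 4 replicate 1 (0.22) was left out, and under 4 other settings (0.0559 to 0.193). Its day response in KO1 exceeded that of WT by log2 1.60 (SE 0.46, adjusted p = 0.038), a call lost when any library other than KO1 day 0 replicate 1 was left out (0.0581 to 0.168) and with only the libraries compared (0.0833). In all, 2 of 8 day responses differed from WT in KO2 and 3 of 8 in KO1, where 13.9% (6.37% higher, 7.5% lower) and 9.8% (4.99% higher, 4.81% lower) of all features did. Those of APOA1 and APOA2 did not pass, with adjusted p values of 0.157 for both genes in KO2, and of 0.242 for APOA1 and 0.178 for APOA2 in KO1, where day 0 libraries hold 0 to 5 counts. In KO1 that of APOA1 passed without KO1 day 0 replicate 2 (0.0246) and that of APOA2 without KO1 day 0 replicate 1 (0.0356). The responses of the clones are set against the same WT libraries.

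**Figure D2:**
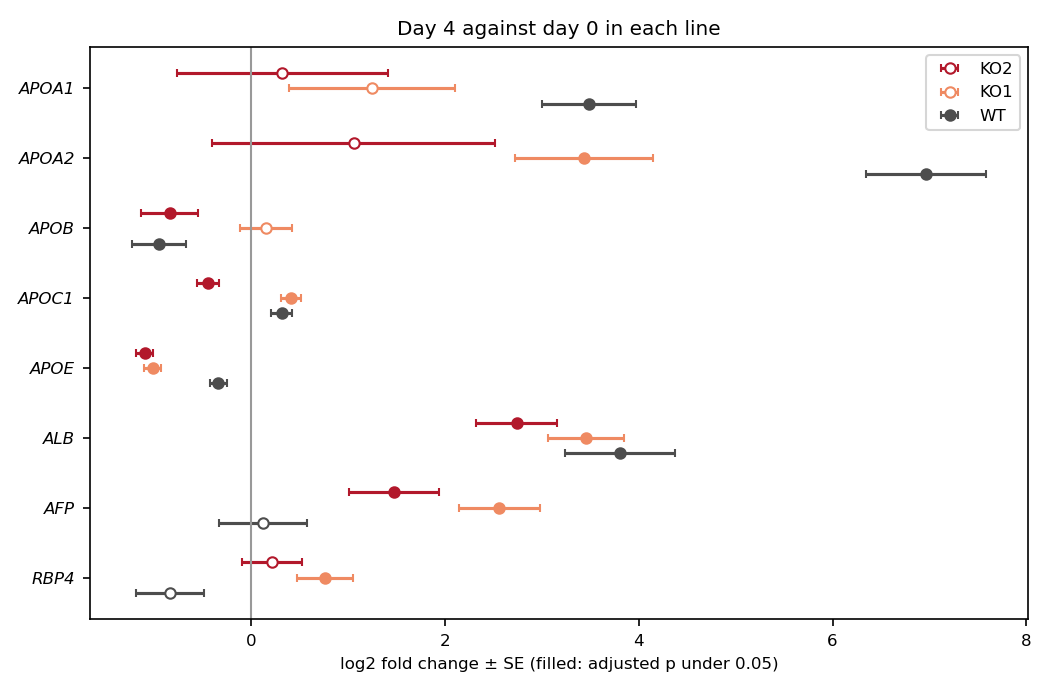
Fitted log2 fold change of day 4 against day 0 with its SE in KO2, KO1 and WT (2 libraries a group), filled where the adjusted p is under 0.05. APOA1 is filled in WT, APOA2 in KO1 and WT, and ALB in all 3 lines; fitted values of genes with 1 to 3 counts in a group depend on the prior count.

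At day 4 the clones carried less APOA1, APOA2 and APOE RNA than WT. KO2 had 5 of 8 genes called, 1 higher and 4 lower, where 28% of all features were called (13.5% higher, 14.5% lower), and KO1 had 5 of 8, 2 higher and 3 lower, where 19.9% were (10.5% higher, 9.42% lower). Over the mean of both clones 2 genes were higher and 3 lower, where 23.9% of features were called (11.3% higher, 12.6% lower). APOA1, at the values given above, had 2 and 3 counts in KO2 and 3 and 5 in KO1, against 54 and 53 in WT. It was lower by log2 -4.30 in KO2 (SE 0.52, adjusted p = 2.55e-05) and by -3.58 in KO1 (SE 0.48, adjusted p = 0.000119). APOA1 was admitted to the test only through WT day 4, the group where it is high. APOA2 is also highest in WT day 4 and would not have been admitted without that group. APOA2 had 2 and 1 counts in KO2 and 13 and 10 in KO1, against 86 and 91 in WT. By the ratio of counts APOA2 was 56.5-fold lower in KO2 (counting interval 19.01 to 276). Its fitted change was log2 -5.71 in KO2 (SE 0.51, adjusted p = 1.12e-06) and -2.80 in KO1 (SE 0.35, adjusted p = 6.13e-05). Both KO2 libraries lay below the floor of 3 counts for APOA2, so the size of the KO2 fold is uncertain. APOE was lower by log2 -0.83 in KO2 (SE 0.089, adjusted p = 7.91e-06) and by -0.69 in KO1 (SE 0.089, adjusted p = 7.22e-05). These 6 calls were kept under every alternative that gave an adjusted p; DESeq2 gave none for APOA1 in KO1.

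Levels of cell type markers in the same libraries stood as follows. All 8 definitive endoderm markers had lower means in KO2 than in WT at day 4, and 6 of 8 did in KO1. Most of their sum is CER1, a secreted inhibitor of Nodal, at a mean of 866 CPM in KO2 and 4490 CPM in KO1, against 4032 CPM in WT, and CER1 and EOMES were the 2 with higher means in KO1. CXCR4, a chemokine receptor used to sort endoderm, averaged 8.56 CPM in KO2 and 55.6 CPM in KO1, against 152 CPM in WT, and SOX17, an endoderm transcription factor, averaged 16.5 CPM in KO2 and 106 CPM in KO1, against 138 CPM in WT. The 9 markers of yolk sac and visceral endoderm summed to 40.1 to 42.3 CPM in KO2, 87.3 to 88.2 CPM in KO1 and 66.6 to 73.4 CPM in WT. The higher sum in KO1 goes with PDGFRA, a growth factor receptor listed for mesoderm too, at 33.9 CPM in KO1 against 14.1 CPM in WT; 6 of the 9 had lower means in KO1. Markers of undifferentiated cells summed to 3301 to 3339 CPM in KO2 and 2826 to 2827 CPM in KO1, against 2801 to 2808 CPM in WT. LIN28A was the largest part, at a mean of 1572 CPM in KO2 and 1624 CPM in KO1, against 1697 CPM in WT. It was the only 1 of the 6 with a lower mean in KO2, where 5 were higher. In KO1, 3 were lower and 3 higher. Mesoderm markers summed to 146 to 156 CPM in KO2 and 199 to 206 CPM in KO1, against 158 to 163 CPM in WT. Most of that sum is KDR, at a mean of 119 CPM in KO2, 135 CPM in KO1 and 130 CPM in WT. KDR was higher in WT day 0, at 211 CPM, so the sum is not a measure of mesoderm alone. Of the 8 markers, 6 had lower means in KO2 and 2, T and HAND1, higher, and 7 were higher in KO1. T averaged 21.98 CPM in KO2 and 27.8 CPM in KO1, against 13.4 CPM in WT. Neuroectoderm markers, mostly OTX2, summed to 116 to 130 CPM in KO2 and 213 to 230 CPM in KO1, against 275 to 305 CPM in WT. OTX2 averaged 90.3 CPM in KO2, 189 CPM in KO1 and 255 CPM in WT, and 45.1 CPM in WT day 0. The rest differed little in CPM: ZIC1 averaged 22.6 CPM in KO2, 25.5 CPM in KO1 and 26.9 CPM in WT. SOX1 averaged 9.52 CPM in KO2, 5.68 CPM in KO1 and 6.71 CPM in WT. PAX6, HES5 and LHX2 averaged under 1 CPM in each day 4 group. Markers of trophoblast and amnion summed to at most 8.29 CPM in each day 4 library. The part of these marker sets in the results at day 4 was not tested.

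The remaining genes went different ways at day 4. APOC1 had 21.99 and 22.96 CPM in KO2 and 38.3 and 42.3 CPM in KO1, against 31.9 and 36.1 CPM in WT. It was lower in KO2 (log2 -0.60, SE 0.11, adjusted p = 0.000863) and did not pass in KO1 (log2 0.25, adjusted p = 0.117). APOC1 lies beside APOE and beside the near-identical pseudogene APOC1P1, so its counts depend on how shared reads were handled and are uncertain. ALB stood at log2 0.64 in KO2 (SE 0.29, adjusted p = 0.111) and at 0.66 in KO1 (SE 0.29, adjusted p = 0.132), and APOB at -0.09 in KO2 and 0.40 in KO1, and neither gene passed in either clone. RBP4 had 1.69 and 1.87 CPM in KO2 and 2.07 and 1.58 CPM in KO1, against 0.915 and 0.645 CPM in WT. It was higher by log2 1.20 in KO2 (SE 0.33, adjusted p = 0.0131) and by 1.22 in KO1 (SE 0.33, adjusted p = 0.0173). AFP was higher in KO1 by log2 1.49 (SE 0.39, adjusted p = 0.0146), and in KO2 its 0.90 did not pass (adjusted p = 0.115).

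The AFP and RBP4 calls at day 4 rested on single libraries. For AFP in KO1 the adjusted p was 0.162 when WT day 4 replicate 1 was left out, and 0.0904 or 0.0562 when replicate 1 or 2 of KO1 day 4 was. AFP in KO2 passed without KO1 day 0 replicate 1 (0.00587) or replicate 2 (0.00566), libraries that are not in this comparison, with no filter (0.000193) and with only the libraries compared (0.00544). For RBP4 it was 0.161 in KO1 and 0.129 in KO2 without WT day 4 replicate 2, 0.147 in KO1 without KO1 day 4 replicate 1 and 0.0965 in KO2 without KO2 day 4 replicate 2. DESeq2 called neither gene in either clone, with adjusted p values of 0.113 for both genes in KO1 and of 0.0974 for RBP4 in KO2. Over the mean of both clones AFP was higher by log2 1.20 (adjusted p = 0.0237) and RBP4 by 1.21 (adjusted p = 0.00716). The AFP call was lost without WT day 4 replicate 1 (0.29), KO1 day 4 replicate 1 (0.0577) or KO2 day 4 replicate 1 (0.0571), with DESeq2 (0.136) and with the 4 KO libraries as 1 group (0.106), and the RBP4 call without WT day 4 replicate 2 (0.119) and with DESeq2 (0.0599).

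**Figure D3:**
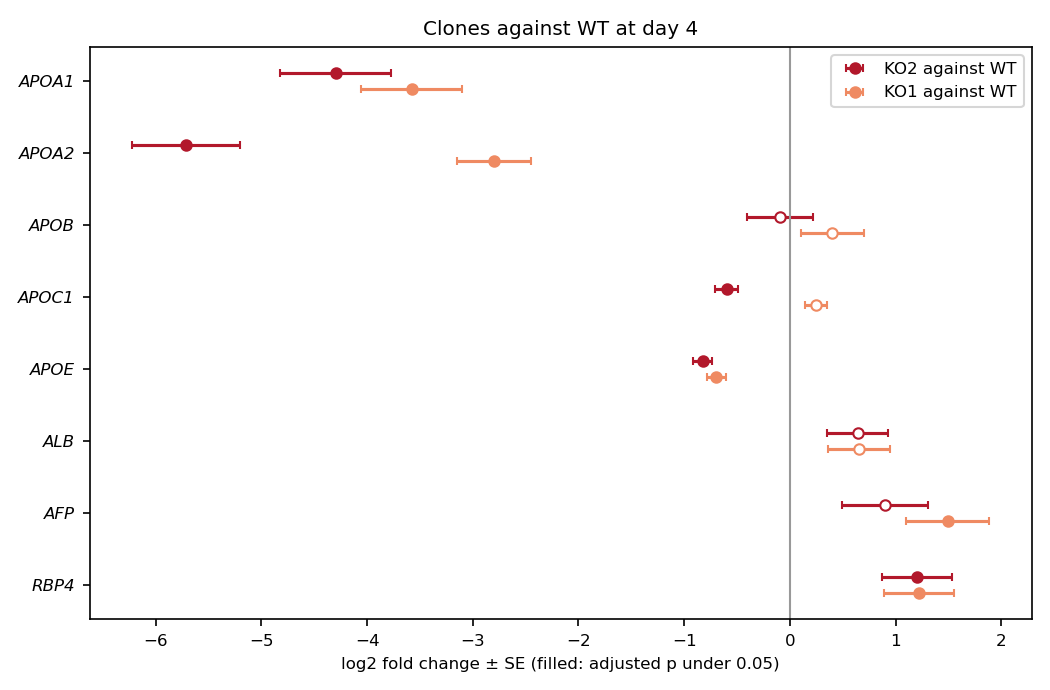
Fitted log2 fold change against WT at day 4 with its SE for KO2 and KO1 (2 libraries a group), filled where the adjusted p is under 0.05. APOA1, APOA2 and APOE lie below 0 in both clones, RBP4 lies above 0 in both, and APOC1 lies below 0 in KO2 only among the filled points.

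Between the clones at day 4, 2 of 8 genes differed, where 25.1% of all features were called (10.8% higher, 14.3% lower). By the ratio of counts APOA2 was 8.04-fold lower in KO2 than in KO1 (3 counts against 23, counting interval 2.43 to 41.8). Its fitted change was called lower, at log2 -2.91 (SE 0.74, adjusted p = 0.00902). That call was lost without KO1 day 4 replicate 1 (0.0799) or KO2 day 4 replicate 2 (0.108). APOC1 was lower in KO2 by log2 -0.84 (SE 0.11, adjusted p = 4.39e-05). For ALB the difference was log2 -0.01, with a 95% interval of -0.59 to 0.57, and for RBP4 it was -0.02, with an interval of -0.63 to 0.59. AFP stood at log2 -0.59 (adjusted p = 0.261) and was called lower in KO2 when either KO1 day 0 library was left out (0.026 and 0.0251), with no filter (0.0132) and with only the libraries compared (0.00214). In that last setting APOE, at log2 -0.13, was called as well (0.0458). At day 0, 0 of 8 genes differed from WT in KO2 and 0 of 8 in KO1, where 0.143% (0.0536% higher, 0.0893% lower) and 0.238% (0.0596% higher, 0.179% lower) of all features did. At an unadjusted p under 0.05 there were 0 genes in KO2 and 1 in KO1, APOB, and DESeq2 called 0 in both clones. Without KO1 day 0 replicate 1, APOA1 and AFP were called lower in KO1 at day 0 (adjusted p = 0.0168 for APOA1 and 0.000654 for AFP), and with no filter AFP was (0.0171).

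Transcription factors of endoderm and liver were followed beside these genes, and 27 of the 33 listed were tested. Between the days in WT 14 rose and 7 fell, with a median of log2 0.43 against -0.0038 over all features. At day 4, 3 were higher and 13 lower in KO2 than in WT, with a median of -0.42 against 0.0094 over all features, and 5 were higher and 5 lower in KO1, with a median of -0.088 against 0.0085. The calls come to 77.8% of the tested factors between the days in WT, where 49.6% of all features were called, and to 59.3% in KO2 and 37% in KO1 against WT, where 28% and 19.9% were. HNF4A, a nuclear receptor of liver, averaged 0.582 ± 0.0287 CPM in KO2 and 0.715 ± 0.156 CPM in KO1, against 1.91 ± 0.118 CPM in WT (SD, n = 2 each), and was lower by log2 -1.70 in KO2 (adjusted p = 0.00691) and by -1.39 in KO1 (adjusted p = 0.0243). GATA4 averaged 5.69 ± 0.574 CPM in KO2 and 31.1 ± 2.15 CPM in KO1, against 68.1 ± 6.32 CPM in WT (log2 -3.58 in KO2, adjusted p = 1.68e-10, and -1.13 in KO1, adjusted p = 5.73e-06). Among the factors higher than in WT, CEBPA averaged 3.91 ± 0.996 CPM in KO2 and 3.66 ± 0.314 CPM in KO1, against 1.72 ± 0.487 CPM in WT (log2 1.18 in KO2, adjusted p = 0.00354, and 1.06 in KO1, adjusted p = 0.0112). PROX1 and ONECUT2 were higher in KO1 (log2 1.19 and 1.11) and stood at 0.26 and -0.42 in KO2, where neither passed. HNF4G was higher in KO2 (log2 1.14), and its 0.84 in KO1 did not pass. FOXA2 averaged 10.7 ± 2.97 CPM in KO2 and 51.4 ± 3.80 CPM in KO1, against 60.6 ± 3.99 CPM in WT; it was lower in KO2 (log2 -2.51, adjusted p = 1.39e-08) and did not pass in KO1 (log2 -0.23, adjusted p = 0.236).

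Other secreted proteins of the liver gave 18 tested genes of 51, and the highest level among the 33 not tested was 0.763 CPM, for the clotting factor gene F5. Between the days in WT 2 rose and 10 fell (median log2 -0.85 against -0.0038 over all features), which is 66.7% called against 49.6% of all features. Among those that fell was AMBP, the precursor of an alpha-1 microglobulin, at 1.04 ± 0.173 CPM at day 4 and 6.38 ± 0.429 CPM at day 0. At day 4, 1 was higher and 4 lower in KO2 than in WT, and 1 higher and 6 lower in KO1 (medians -0.41 in KO2 and -0.52 in KO1). That is 27.8% of the tested genes in KO2, near the 28% over all features, and 38.9% in KO1, against 19.9%. The complement gene C5 averaged 0.656 ± 0.0193 CPM in KO2 and 1.15 ± 0.0335 CPM in KO1, against 6.35 ± 1.59 CPM in WT (log2 -3.25 in KO2, adjusted p = 5.45e-05, and -2.45 in KO1, adjusted p = 0.000506). The complement gene C3 averaged 0.689 ± 0.501 CPM in KO2 and 3.69 ± 0.819 CPM in KO1, against 10.6 ± 1.46 CPM in WT (log2 -3.99 in KO2, adjusted p = 1.39e-05, and -1.51 in KO1, adjusted p = 0.00544). TFPI, an inhibitor of tissue factor coagulation, was higher in both clones (log2 1.17 in KO2 and 0.88 in KO1).

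The other apolipoproteins gave 10 tested genes of 20, of which 2 were higher and 2 lower in KO2 than in WT at day 4, and 1 higher and 0 lower in KO1. The share called was 40% in KO2, against 28% of all features, and 10% in KO1, against 19.9%. CLU, the secreted chaperone clusterin, averaged 183 ± 1.49 CPM in KO2 and 97.3 ± 7.85 CPM in KO1, against 104 ± 15.3 CPM in WT (log2 0.82 in KO2, adjusted p = 0.000162, and -0.10 in KO1, adjusted p = 0.642). APOL3 was lower in KO2 (log2 -1.72, adjusted p = 0.000469) and higher in KO1 (log2 0.91, adjusted p = 0.0101). Among 12 tested genes of assembly, lipolysis and remodelling, 1 was lower in KO2 and 0 higher, and 2 were higher and 1 lower in KO1. That is 8.33% called in KO2, against 28% of all features, and 25% in KO1, against 19.9%. The lipase gene LIPG averaged 17.0 ± 0.719 CPM in KO2 and 104 ± 16.0 CPM in KO1, against 17.9 ± 2.03 CPM in WT (log2 -0.07 in KO2, adjusted p = 0.775, and 2.54 in KO1, adjusted p = 1.56e-08). MTTP, which loads lipid onto APOB, was not tested and reached 0.656 CPM at most.

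Of 15 tested lipoprotein receptors and lipid exporters, 2 were higher and 6 lower in KO2 than in WT at day 4, and 3 higher and 3 lower in KO1. The share called was 53.3% in KO2, against 28% of all features, and 40% in KO1, against 19.9%. ABCA1, which exports lipid to APOA1, averaged 7.90 ± 1.99 CPM in KO2 and 1.65 ± 0.102 CPM in KO1, against 12.8 ± 1.29 CPM in WT (log2 -0.71 in KO2, adjusted p = 0.016, and -2.96 in KO1, adjusted p = 2.14e-06). CUBN, an uptake receptor for APOA1, averaged 1.18 ± 0.313 CPM in KO2 and 3.03 ± 0.593 CPM in KO1, against 3.06 ± 0.314 CPM in WT (log2 -1.34 in KO2, adjusted p = 0.00509, and -0.02 in KO1, adjusted p = 0.972). Of 14 tested genes of vitamin A and thyroid hormone transport, 2 were higher and 4 lower in KO2, and 2 higher and 3 lower in KO1. That is 42.9% called in KO2, against 28% of all features, and 35.7% in KO1, against 19.9%. CYP26A1, which degrades retinoic acid, averaged 86.0 ± 13.8 CPM in KO2 and 346 ± 5.61 CPM in KO1, against 601 ± 60.9 CPM in WT (log2 -2.81 in KO2, adjusted p = 1.68e-10, and -0.80 in KO1, adjusted p = 5.3e-05). DIO3, which inactivates thyroid hormone, averaged 2.25 ± 0.443 CPM in KO2 and 15.1 ± 1.76 CPM in KO1, against 31.7 ± 12.02 CPM in WT (log2 -3.82 in KO2, adjusted p = 9.35e-08, and -1.07 in KO1, adjusted p = 0.00239).

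**Figure D4:**
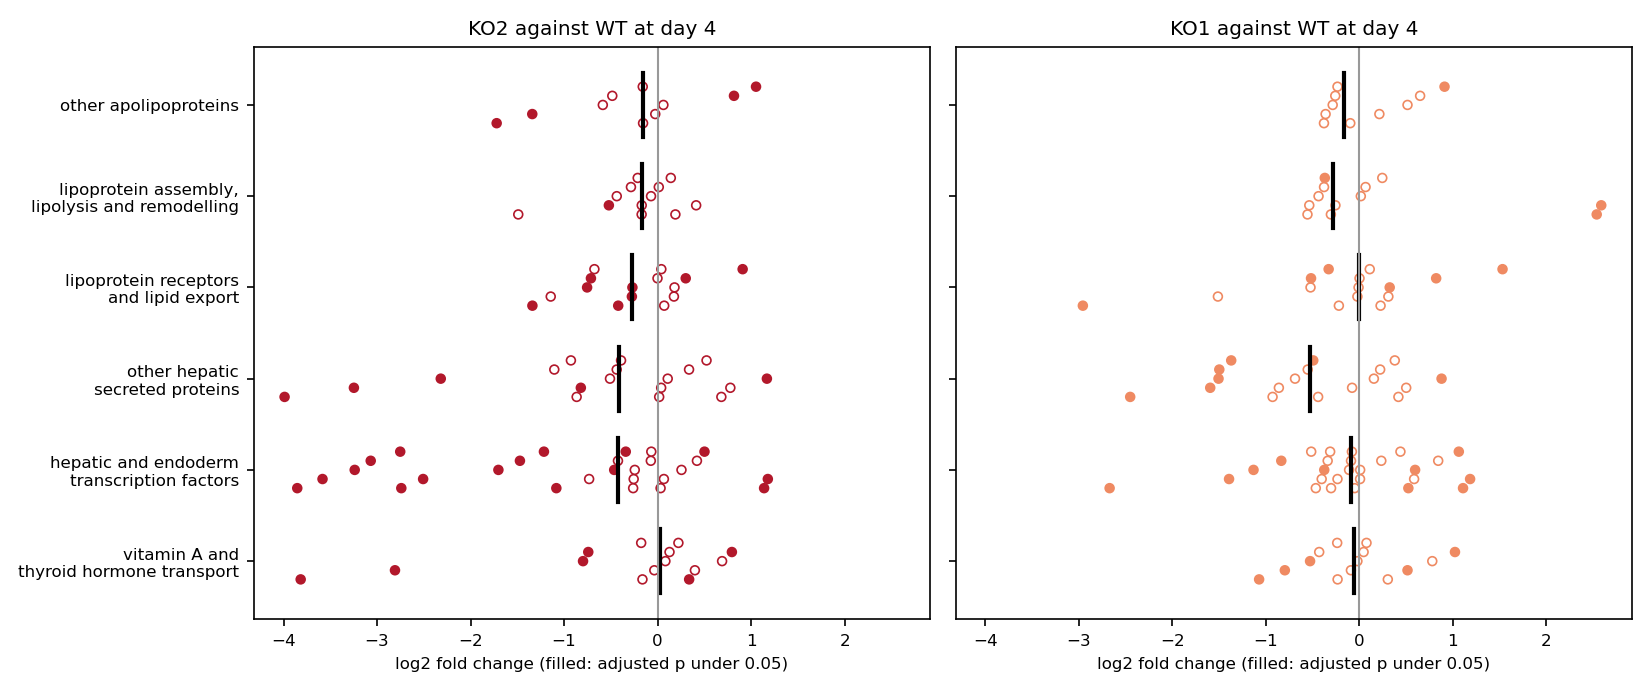
Fitted log2 fold change against WT at day 4 of the tested genes of 6 lists in KO2 and in KO1 (points, filled where the adjusted p is under 0.05; black lines, list medians). Transcription factors reach further below 0 in KO2, where 13 of 27 are called lower, than in KO1, where 5 are.

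Across the 12 libraries, the genes whose log2 CPM most resembled that of APOA1 were DOPEY1, COL4A1 and CCKBR (Pearson r = 0.95, 0.94 and 0.94), and of APOA2 they were VWF, MAGED2 and KRT8 (r = 0.98 each). For ALB the closest 2 were ATP6V1D and LTB4R (r = 0.98 each), and for AFP they were AGPS, CLSPN and GCNT4 (r = 0.98, 0.97 and 0.96). APOC1 was most like its neighbour APOC1P1 (r = 0.96), and APOE was most like CORO1B (r = 0.99). The libraries come from 2 days and 3 lines and are not independent points, so the coefficients are given as a description.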

How the data were processed

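Poly(A) RNA-seq of H1 cells was deposited by the authors as read counts per feature, 1 file per library, made with Bowtie2 2.1.0 and HTSeq 0.6.1 on hg19 per the submitters' processing notes. For the strand setting and annotation the sources used here give nothing, so overlapping or near-identical genes such as APOC1 and APOC1P1 are uncertain. HTSeq's summary rows stayed out of library sizes; per library they held 29.2% to 30.5% of reads as outside any feature, 19.3% to 22.2% as of low quality, 1.17% to 1.41% as ambiguous and 0.115% to 0.171% as not aligned. ChIP-seq samples were not used here.

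Counts of 12 libraries were scaled with TMM factors, and 16792 of 54435 features passed filterByExpr (minimum count 10). A quasi-likelihood model of edgeR 4.0.16 (R 4.3.3) was fitted to 6 groups of 2 libraries. P values were adjusted by Benjamini-Hochberg over all features tested, with a threshold of 0.05. CPM and ratios of counts were computed here, with exact 95% intervals of ratios. SE is the log2 fold change over the square root of F. Alternatives were DESeq2 1.42.0, other size factors, no filter, only the libraries compared, the replicate number as a block and leaving out each library, where the lone library left in a group is assumed to vary like the other groups. Same-numbered libraries correlated from -0.04 to 0.155 in their deviations, so the numbers were not treated as pairs. Genes of the lists are named by size, at most 2 each way per comparison among called genes whose higher group reached 1 CPM, with their values in the other clone, together with FOXA2, chosen after its values were seen; some genes this rule names are not reported here. Likeness was taken over genes with a mean of at least 5 CPM, on log2 CPM with a prior count of 2. The genes and lists were chosen with earlier results of these data known. Gene neighbours and promoter sequences come from RefSeq tables on GRCh38.p14, which matched all 10 genes by symbol. Figures were drawn with matplotlib 3.10.9.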

Additional observations from a re-analysis of the deposited data

Results flagged for a closer look

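The day response, day 4 against day 0, differed from that of WT by a test of the difference itself in 5 cases. In KO2 the response of APOC1 differed by log2 -0.76 (SE 0.16, adjusted p = 0.00469) and that of APOE by -0.76 (SE 0.12, adjusted p = 0.000953). In KO1 the response of APOE differed by -0.68 (SE 0.12, adjusted p = 0.00361), that of AFP by 2.44 (SE 0.63, adjusted p = 0.0241) and that of RBP4 by 1.6 (SE 0.46, adjusted p = 0.038). The AFP difference was not called without WT day 0 replicate 2 (0.261), WT day 4 replicate 1 (0.0968), KO1 day 4 replicate 1 (0.0807) or KO1 day 4 replicate 2 (0.0556). The RBP4 difference was lost without WT day 0 replicate 2 (0.168), KO1 day 4 replicate 1 (0.157) or WT day 4 replicate 2 (0.154), and 8 further single libraries also ended it.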

How the results depend on the processing

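Of 1574 values for single genes under alternatives, 1472 kept their direction and their side of the threshold, 61 lost a call, 20 gained a call and 21 changed sign. The calls of APOA1, APOA2 and APOE against WT at day 4 were kept in both clones wherever an adjusted p was given. The number of the 8 genes called, when each library was left out in turn, ranged from 3 to 6 in WT between the days, from 2 to 5 in KO2 between the days, from 3 to 5 for KO1 against WT at day 4, from 1 to 3 for KO2 against KO1, from 0 to 2 for KO1 against WT at day 0, and from 1 to 4 for the response of KO1 against that of WT. With DESeq2 the number was 3 for KO2 between the days, 2 for KO1 against WT at day 4 (where it gave APOA1 no adjusted p), 3 for the mean of the clones against WT and 1 for the response of KO1 against that of WT. For the response of KO1, DESeq2 gave no adjusted p for 4 of the 8 genes, APOA1, APOA2, ALB and RBP4. The number called was 1 for that response with only the libraries compared, and 1 for KO1 against WT at day 0 with no filter. With the replicate block the number of genes called was the same in each of the 11 comparisons, for example 5 for KO2 against WT at day 4; the numbers are only names. The cause of these changes was not tested.

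No value that changed sign passed the threshold, nor did the reported value it is set against. When each library was left out, AFP ranged from -0.84 to 0.23 for KO2 against WT at day 0 and from -0.5 to 0.82 in WT between the days. For KO2 against KO1, ALB ranged from -0.11 to 0.12 (0.01 with upper-quartile factors) and RBP4 from -0.21 to 0.17. APOA1 ranged from -0.09 to 0.9 in KO2 between the days and from -3.34 to 1.61 for the response of KO1 against that of WT, and was called, with no change of sign, without KO1 day 0 replicate 2 (adjusted p = 0.0246). APOA2 ranged from -2.5 to 2.67 for KO2 and from -2.41 to 3.2 for KO1 against WT at day 0. APOB ranged from -0.03 to 0.35 in KO1 between the days, from -0.28 to 0.08 for KO2 against WT at day 4 and from -0.08 to 0.28 for the response of KO2. APOC1 ranged from -0.02 to 0.18 for the response of KO1. APOE ranged from -0.2 to 0.08 for KO2 and from -0.15 to 0.13 for KO1 against WT at day 0. Counts over all features moved by over 1.5 times when a library was left out: KO1 against WT at day 4 from 3337 to between 1353 and 5228, KO2 against WT from 4697 to as few as 2492, the mean of the clones from 4011 to between 1751 and 6048, KO2 against KO1 from 4214 to as few as 2146, KO1 against WT at day 0 from 40 to between 9 and 3787, KO2 against WT at day 0 from 24 to between 2 and 120, the response of KO1 from 1645 to between 607 and 4513 and that of KO2 from 2329 to between 1210 and 4245. With only the libraries compared they were 5109 for KO1 and 6280 for the mean against WT at day 4, 6748 for KO2 against KO1, 105 for KO2 and 12 for KO1 at day 0, 4098 for the response of KO2 and 853 for that of KO1. With no filter KO2 gave 113 and KO1 383 at day 0, where DESeq2 gave 38 for KO2, and the 4 KO libraries as 1 group gave 1733 for the mean. Depth limits APOA1, APOA2 and ALB at day 0, where 0 to 5 counts a library leave fitted changes dependent on the prior count.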
